A study of Homo sapiens with 4 samples.

Results

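The genes described here encode the secreted Wnt ligands, the R-spondins, the Frizzled receptors, the LRP5 and LRP6 co-receptors, the Wnt-binding kinases and pseudokinases ROR1, ROR2, RYK and PTK7, and the ligand-processing proteins PORCN and WLS. The rule that picked them used gene symbols and no measured value, but it was set with earlier results of these data known. Of the 41 genes so named, 37 had a probe set whose annotation gives that symbol alone, and these 37 genes were measured by 72 of the 54613 probe sets tested. WNT3, WNT3A, FZD8 and PORCN had no such probe set and were left out of the group. WNT3 and FZD8 do have probe sets, but these carry a second symbol as well.

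Gene expression was compared between COLO-320DM, a human colorectal cancer cell line with mutated APC, and 320-IWR, a subline that was established from it by continuous treatment with IWR-1, an inhibitor of tankyrase. Both lines share the COLO-320DM genetic background, and 320-IWR is 1 resistant subline, so that nothing here separates tankyrase inhibitor resistance from other properties of that subline. Total RNA of cultured cells was hybridized to 4 arrays (GeneChip Human Genome U133 Plus 2.0), 2 per line. Whether 320-IWR cells were in IWR-1 at harvest, and whether the arrays of a line came from separate cultures, is not given in the sources used here, and p-values therefore reflect variation among these 4 arrays alone, possibly of a purely technical kind.

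Wnt ligands are lipid-modified by PORCN and carried to the cell surface by WLS. At the receiving cell, a Frizzled receptor together with LRP5 or LRP6 stabilizes β-catenin and turns on TCF/LEF target genes, whereas ROR1, ROR2, RYK and PTK7 act mainly in β-catenin-independent responses such as planar cell polarity, with WNT5A and WNT5B as typical ligands. R-spondins strengthen the Frizzled response by clearing the ubiquitin ligases RNF43 and ZNRF3 from the membrane. In intestinal crypts, Wnt signals maintain the stem cells, and loss of APC in colorectal cancer activates β-catenin below the receptors.

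In 320-IWR cells, ROR1 fell and a dim probe set of WNT16 rose, and no other ligand or receptor probe set passed the test. WNT5B had a large negative difference that just missed it. Most other genes of the group differed little between the lines, as did most genes on the arrays. By brightest probe set, 27 of the 37 had a log2 fold change within 0.25 of 0 (73%, against 73.3% of all genes). For 29 of the 37 the 95% confidence interval of that difference lay within 2-fold in either direction. The share of all genes with such an interval was not computed. The sequences just upstream of the starts of ROR1, WNT16 and WNT5B are shown because these genes carry the differences described below. WNT5B has 2 listed starts, and whether its probe sets read from different starts was not tested. Each sequence is the 250 bases before a RefSeq transcription start in GRCh38.p14, on the plus strand, 5′ to 3′, with CG dinucleotides in capitals.
ROR1: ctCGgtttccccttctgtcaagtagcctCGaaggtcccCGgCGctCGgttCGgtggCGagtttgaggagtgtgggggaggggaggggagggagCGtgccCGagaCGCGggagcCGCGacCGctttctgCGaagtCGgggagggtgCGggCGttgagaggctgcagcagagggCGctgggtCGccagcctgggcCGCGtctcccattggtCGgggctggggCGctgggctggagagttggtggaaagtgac
WNT16: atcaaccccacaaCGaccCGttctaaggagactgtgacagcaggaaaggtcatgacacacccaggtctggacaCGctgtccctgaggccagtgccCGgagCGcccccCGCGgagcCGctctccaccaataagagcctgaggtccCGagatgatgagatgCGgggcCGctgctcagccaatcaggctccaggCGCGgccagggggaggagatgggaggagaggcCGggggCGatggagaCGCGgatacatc
WNT5B, first start: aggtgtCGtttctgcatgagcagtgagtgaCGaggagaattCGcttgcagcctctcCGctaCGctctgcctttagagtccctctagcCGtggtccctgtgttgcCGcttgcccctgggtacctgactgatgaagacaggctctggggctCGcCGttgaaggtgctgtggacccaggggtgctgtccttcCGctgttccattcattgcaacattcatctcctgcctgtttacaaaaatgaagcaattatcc
WNT5B, second start: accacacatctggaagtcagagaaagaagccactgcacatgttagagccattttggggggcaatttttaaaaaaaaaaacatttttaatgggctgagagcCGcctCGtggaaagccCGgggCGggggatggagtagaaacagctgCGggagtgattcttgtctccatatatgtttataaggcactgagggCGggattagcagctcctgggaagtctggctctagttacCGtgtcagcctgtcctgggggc

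The ROR1 window, at chr1:63773767-63774016, holds 24 CG dinucleotides. The WNT16 window, at chr7:121328750-121328999, holds 17. The WNT5B windows, at chr12:1616806-1617055 and chr12:1628981-1629230, hold 10 and 7. Over all 35116 windows of the RefSeq table, the median was 11.0, and over the 37 windows found for 31 of the 41 genes it was 24. At least as many CG dinucleotides as in the ROR1 window were found in 23.7% of all windows, and at least as many as in the WNT16 window in 39%. CTTTGAT, the core letters bound by TCF/LEF factors, was searched for on both strands and stood in 0 of the 37 windows, against 2.26% of all windows. At so low a share, 37 windows are too few to show a lack of it. These counts describe letters only, and the arrays measured neither binding nor methylation.

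Intensities are linear normalized values, and a log2 fold change is the mean log2 intensity in 320-IWR cells minus that in COLO-320DM cells. A probe set was said to rise or fall at a limma p, adjusted by the Benjamini-Hochberg method over all 54613 probe sets, under 0.05 together with at least a 2-fold difference. Of the 72 ligand and receptor probe sets, 1 rose and 1 fell, where 0.112% of all tested probe sets rose and 0.258% fell. At an unadjusted p under 0.05, 2 were higher and 8 lower in 320-IWR cells, or 2.78% and 11.1%, against a background of 4.6% and 5.11% of all probe sets. Both arrays of 320-IWR lay above both arrays of COLO-320DM in 6 of the 72 probe sets (8.33%, against 19.5% of all probe sets) and below them in 21 (29.2%, against 16.1%), while the lines overlapped in 45. Probe sets of 1 gene share transcripts and are not independent, and 5 of the 8 lower ones at the unadjusted p belong to ROR1 and WNT5A. The median log2 fold change was -0.07 over the 72 probe sets and 0.01 over all probe sets.

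When each gene was represented by its brightest probe set, the one with the highest mean log2 intensity, 0 of the 37 genes rose and 1 fell, where 0.192% and 0.399% of 19775 genes did. At an unadjusted p under 0.05, 1 was higher and 4 were lower, against 5.91% and 6.36% of all genes. The lines did not overlap in 3 higher genes (8.11%, against 21% of all genes) and 11 lower ones (29.7%, against 17.5%). Their median log2 fold change was -0.06, against 0.02 over all genes. Of the 22 genes with more than 1 probe set, all had negative log2 fold changes in 12, all had positive ones in 5, and the signs were mixed in 5. WNT5B counted among the 12, although its dimmest probe set was level between the lines (-1.7e-07, with overlap). Every probe set was lower without overlap in ROR1, WNT5A and PTK7, and every one was higher without overlap in WNT16. How often other genes on the arrays show such agreement was not computed, so these counts are not read as a lean of the group. The intensity stayed under 64 on all 4 arrays for 34 of the 72 probe sets, many of them for ligands and R-spondins. No detection call was used, so a low value is not read as absence of the RNA.

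**Figure D1:**
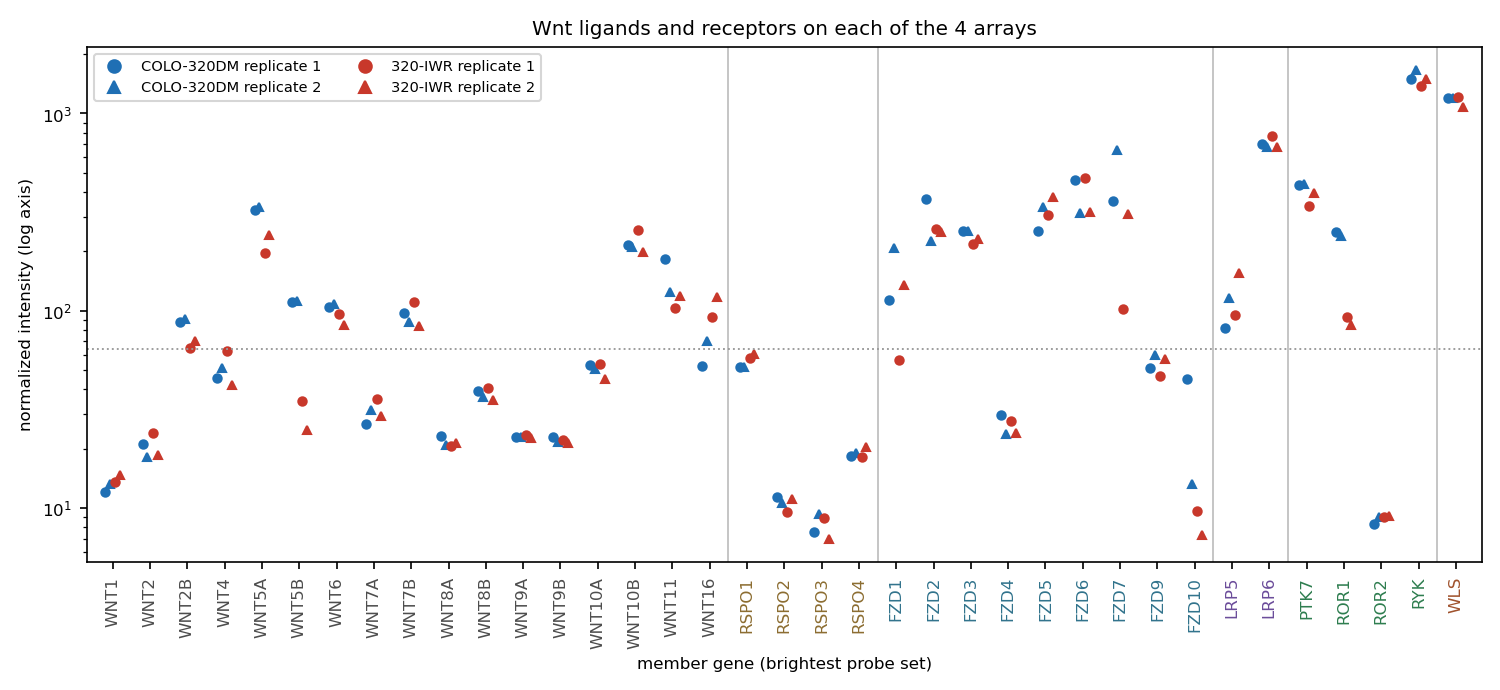
Normalized intensity (log axis) of the brightest probe set of each of the 37 genes, with 1 point per array (circles, replicate 1; triangles, replicate 2; blue, COLO-320DM; red, 320-IWR), ordered by role and separated by vertical lines; the dotted line is an intensity of 64. The colors separate clearly for WNT5B and ROR1, while for FZD1 and FZD7 the spread within a line is about as wide as the gap between lines.

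**Figure D2:**
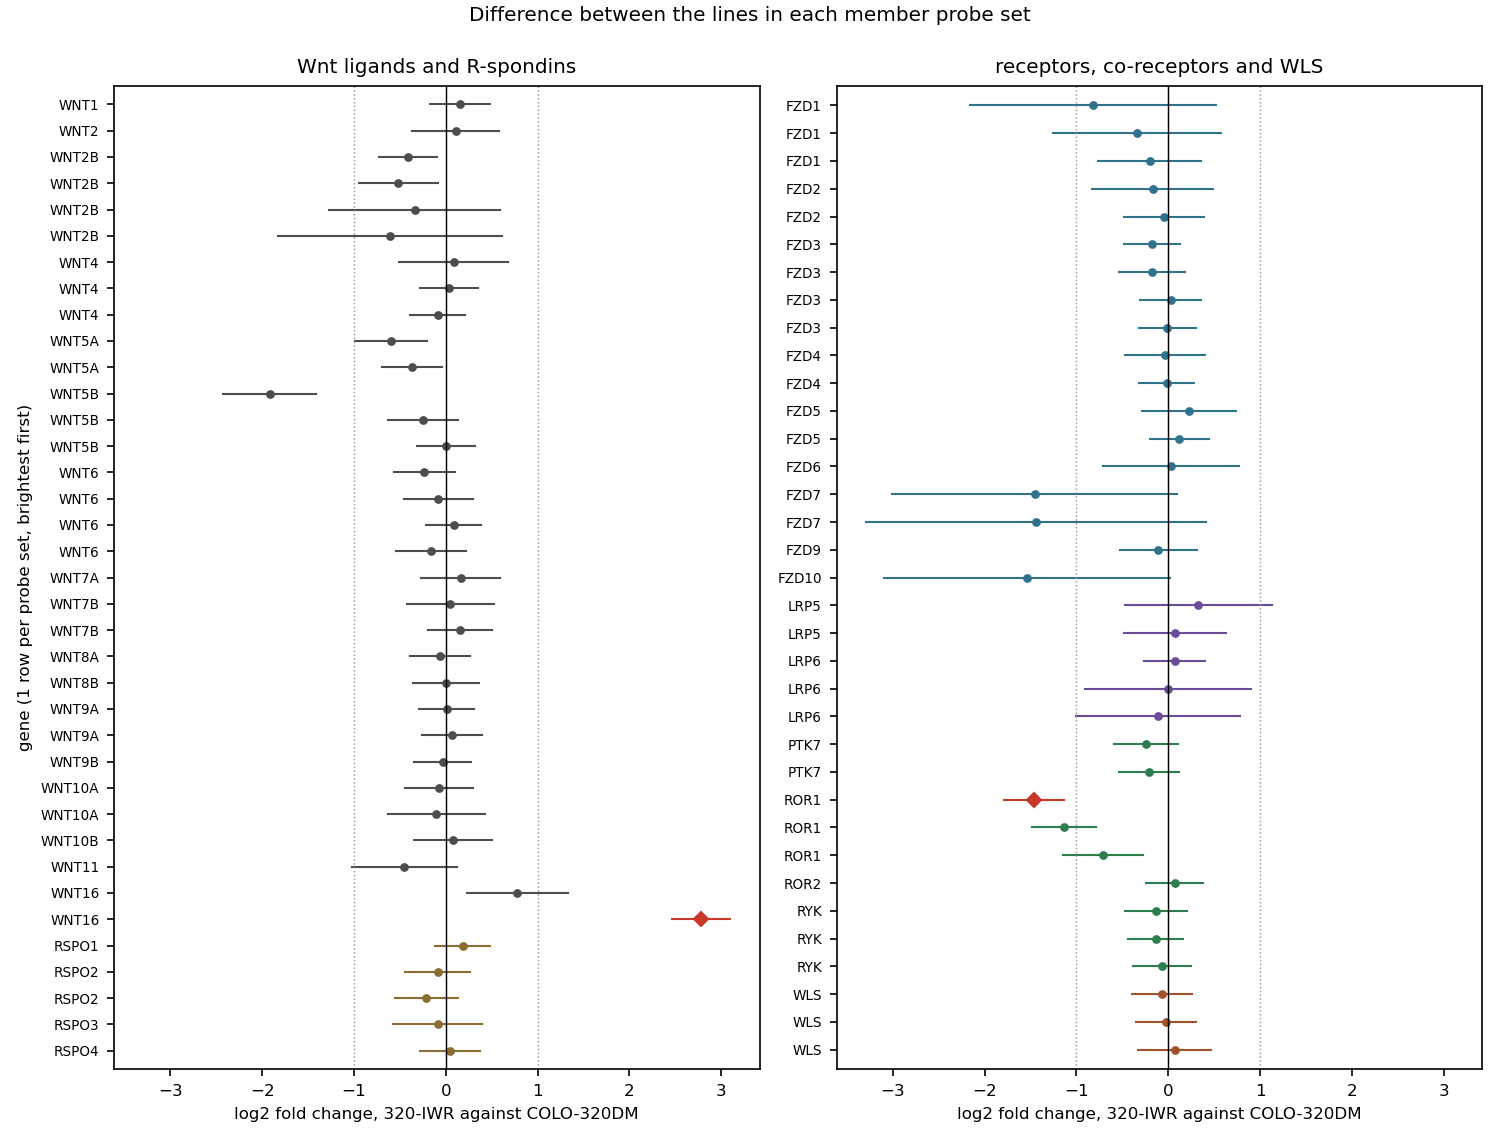
Log2 fold change, 320-IWR against COLO-320DM, of each of the 72 probe sets with its 95% confidence interval from limma (horizontal bars), brightest probe set of a gene first; dotted lines mark 2-fold. Red diamonds are the probe sets of WNT16 (2.78) and ROR1 (-1.46) that passed the test. Within 0.25 of 0 lie 53 of the 72 points (73.6%, against 75.8% of all probe sets).

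Among the ligands, WNT5B, which acts mainly without β-catenin, had the largest negative difference. Its brightest probe set read 111 and 112 in COLO-320DM cells and 34.9 and 24.9 in 320-IWR cells. Both 320-IWR arrays were far below both parental arrays, whose values almost coincided. The log2 fold change was -1.92 (SE 0.19, n = 2 arrays per line, limma adjusted p = 0.0556), which did not pass the test. The other two WNT5B probe sets did not show a difference of this size. One read 41.8 and 40.8 against 31.6 and 38.2 (log2 fold change -0.25, adjusted p = 0.744), without overlap. The dimmest read 10.1 and 10.6 against 10.7 and 9.94, with the lines overlapping. With either of 2 other normalizations between arrays the brightest probe set fell (adjusted p = 0.0442 with cyclic loess and 0.0452 with equal array medians), as it did when dim probe sets were left out of the test (adjusted p = 0.0474). It did not pass with a trended robust prior (0.0581), with 32 added before log2 (log2 fold change -1.22, adjusted p = 0.108) or as the mean of the gene's probe sets (-0.72, 0.0717). With any 1 array left out, the log2 fold change of the brightest probe set lay between -2.16 and -1.68.

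WNT5A, the related ligand that binds ROR1, read 325 and 338 in COLO-320DM cells and 197 and 243 in 320-IWR cells by its brightest probe set. The lines did not overlap, and the log2 fold change of -0.60 did not pass the test (limma adjusted p = 0.286, n = 2 per line). Its second probe set read 148 and 150 against 110 and 122, again without overlap (log2 fold change -0.37). WNT2B, a ligand of the β-catenin branch, had negative log2 fold changes in all 4 of its probe sets, from -0.61 to -0.34, and its lines were apart in 2 of them. The brightest read 87.9 and 91.3 against 64.4 and 70.3. WNT11, a ligand of β-catenin-independent responses, read 183 and 125 against 103 and 119 (log2 fold change -0.45, adjusted p = 0.658), with the lower parental array close to the higher 320-IWR array.

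WNT16, a ligand best known from bone, was the one ligand with a probe set that rose. That probe set read 8.29 and 7.86 in COLO-320DM cells and 53.4 and 57.7 in 320-IWR cells. The arrays of each line were close together, and the lines were far apart. The log2 fold change was 2.78 (SE 0.12, n = 2 per line, limma adjusted p = 0.00853). The parental values are so low that the size of this fold depends on the scale, and with 32 added to every intensity before log2 it was 1.13 and did not pass (adjusted p = 0.0601). With any 1 array left out, the log2 fold change of the dim probe set lay between 2.72 and 2.84. All 4 values were under 64, and the _x_at suffix of this probe set marks probes that can match other transcripts too. The brighter WNT16 probe set read 52.3 and 70.6 against 93.0 and 117, higher in 320-IWR cells without overlap, but its log2 fold change of 0.78 (SE 0.21) did not pass the test (adjusted p = 0.316).

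The other 12 ligand genes had log2 fold changes from -0.23 (WNT6) to 0.16 (WNT7A) by their brightest probe sets, and none passed the test. WNT10B, a β-catenin ligand, read 216 and 211 in COLO-320DM cells and 255 and 199 in 320-IWR cells. The 320-IWR arrays enclosed the parental ones. WNT6 read 104 and 108 against 96.2 and 84.8, lower without overlap, but its 3 dimmer probe sets had log2 fold changes of -0.16 to 0.09. WNT7B read 97.9 and 88.2 against 111 and 83.3. WNT1, WNT2, WNT4, WNT7A, WNT8A, WNT8B, WNT9A, WNT9B and WNT10A stayed under 64 on every array in every probe set. The 4 R-spondins were also under 64 on every array, with log2 fold changes of -0.09 to 0.18 by their brightest probe sets. RSPO1 read 51.6 and 51.9 against 57.5 and 60.1, higher without overlap (log2 fold change 0.18, adjusted p = 0.779). RSPO2, RSPO3 and RSPO4 overlapped between the lines by their brightest probe sets.

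**Figure D3:**
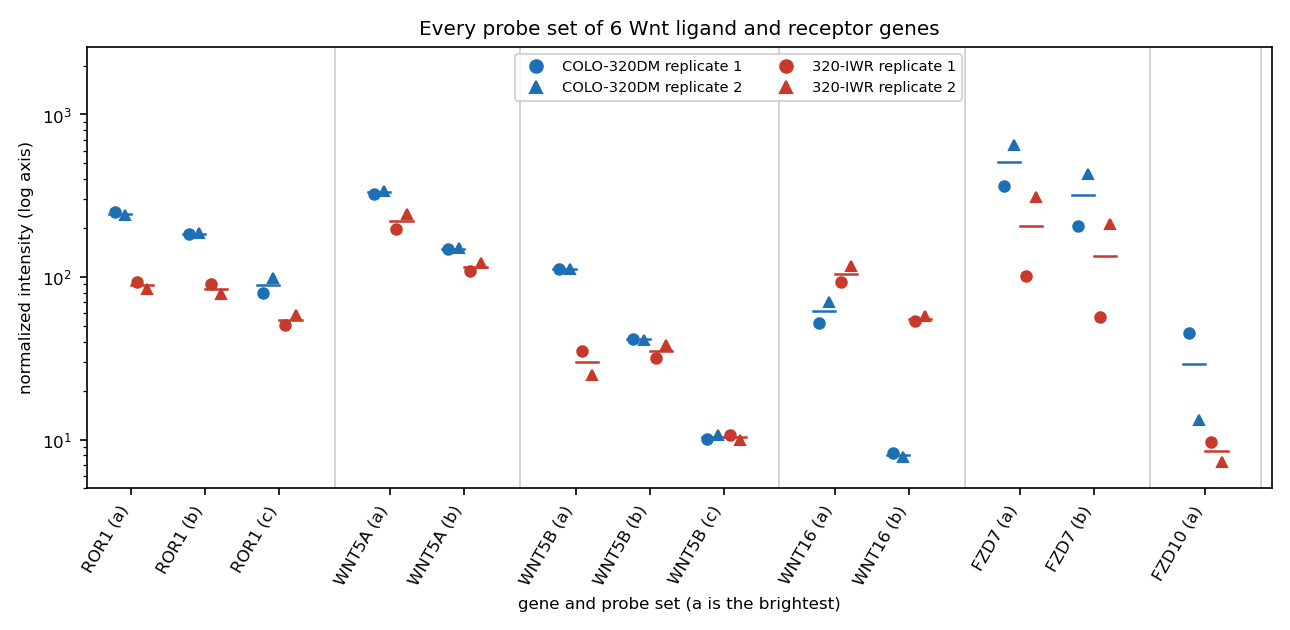
Normalized intensity (log axis) in every probe set of ROR1, WNT5A, WNT5B, WNT16, FZD7 and FZD10, with 1 point per array (circles, replicate 1; triangles, replicate 2; blue, COLO-320DM; red, 320-IWR) and horizontal lines at the arithmetic mean of a line's 2 arrays. The 3 ROR1 probe sets are all lower in 320-IWR cells, only 1 of the 3 WNT5B probe sets has a large gap, and replicate 2 lies above replicate 1 in both lines for FZD7.

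None of the 9 measured Frizzled receptors passed the test. Among these 9, the largest negative differences were those of FZD7, a receptor of intestinal stem cells, and FZD10, both named after their values were seen. FZD8, left out because its 3 probe sets also carry the symbol MIR4683, had log2 fold changes of -1.08, -1.46 and -0.49 in them. None of the 3 passed, and FZD8 too is named after its values were seen. FZD7 read 362 and 651 in COLO-320DM cells and 102 and 308 in 320-IWR cells by its brightest probe set. Replicate 2 was the higher array in both lines, and the lower parental array was only a little above the higher 320-IWR array. The log2 fold change was -1.46 (SE 0.60, n = 2 per line, limma adjusted p = 0.557), with a 95% confidence interval from -3.01 to 0.10. It was -0.65 without 320-IWR replicate 1, -2.26 without 320-IWR replicate 2, -1.03 without COLO-320DM replicate 2 and -1.88 without COLO-320DM replicate 1. Its second probe set gave -1.44, with overlap (207 and 429 against 56.7 and 211). In a fit with the replicate number as a block, the brightest FZD7 probe set had SE 0.21 and limma adjusted p = 0.0802, and did not pass. The labels do not say that same-numbered arrays belong together. FZD10 read 44.9 and 13.2 against 9.68 and 7.28. COLO-320DM replicate 1 stood alone there, and the log2 fold change of -1.54 had a 95% confidence interval from -3.09 to 0.01 (adjusted p = 0.522). It was -0.66 without COLO-320DM replicate 1 and -2.42 without COLO-320DM replicate 2, and -0.54 with 32 added before log2.

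FZD1 read 113 and 208 in COLO-320DM cells and 56.1 and 136 in 320-IWR cells. As for FZD7, replicate 2 was higher in both lines, and the lines overlapped (log2 fold change -0.81, adjusted p = 0.780). The other 6 Frizzled genes had log2 fold changes from -0.18 to 0.22 by their brightest probe sets. FZD3, a receptor linked to planar polarity, read 253 and 254 against 217 and 232, lower without overlap (log2 fold change -0.18). Its second probe set gave -0.17, also without overlap, and its dimmer ones gave 0.03 and -0.01, with overlap. FZD5, a receptor of the intestinal epithelium, read 255 and 335 against 308 and 378, with overlap. FZD6 read 461 and 311 against 471 and 317, a difference of 0.03 beside a spread within each line that was far wider. FZD2 overlapped between the lines, and FZD4 and FZD9 did so at intensities under 64.

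The LRP co-receptors, which pair with Frizzled in the β-catenin branch, did not pass the test. LRP6 read 697 and 680 in COLO-320DM cells and 769 and 680 in 320-IWR cells. Values were nearly equal on 3 of the 4 arrays, the log2 fold change was 0.07 (limma adjusted p = 0.980, n = 2 per line), and the 95% confidence interval ran from -0.26 to 0.41. LRP5 read 81.4 and 116 against 94.8 and 156, with overlap and with replicate 2 the higher array in both lines (log2 fold change 0.33, 95% confidence interval -0.47 to 1.13). WLS, the carrier of ligands to the surface, read 1205 and 1196 against 1209 and 1078 (log2 fold change -0.07, adjusted p = 0.978). Its 3 probe sets gave -0.07 to 0.07, and the lines overlapped in each.

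ROR1, a WNT5A-binding receptor of the ROR family that is expressed mainly in embryonic tissue and in some tumors, was the one gene of the group that fell by its brightest probe set. That probe set read 251 and 239 in COLO-320DM cells and 93.1 and 84.9 in 320-IWR cells. The 2 arrays of each line were close together, and the lines were clearly apart. The log2 fold change was -1.46 (SE 0.12, 95% confidence interval -1.79 to -1.14, n = 2 per line, limma adjusted p = 0.0368). The second probe set read 185 and 185 against 90.7 and 78.3 (log2 fold change -1.13, SE 0.13, adjusted p = 0.0747). The third read 79.6 and 98.9 against 50.5 and 58.4 (log2 fold change -0.71, SE 0.17, adjusted p = 0.254). All 3 were lower in 320-IWR cells without overlap, and only the brightest passed the test.

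With any 1 array left out, the log2 fold change of the brightest ROR1 probe set lay between -1.53 and -1.40. Such fits leave too few arrays for the test to decide whether a call holds, so only the size is given. In these fits the lone array of a line was assumed to vary like those of the other line. It also missed the threshold with a trended robust prior (adjusted p = 0.0558) and with 32 added before log2 (0.0670).

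The other members of this receptor class did not pass the test. ROR2, the paralog of ROR1, read 8.30 and 9.04 in COLO-320DM cells and 9.04 and 9.13 in 320-IWR cells, all low intensities (log2 fold change 0.07). RYK, a pseudokinase with a Wnt-binding domain, read 1502 and 1653 against 1371 and 1497 (log2 fold change -0.14, limma adjusted p = 0.902, n = 2 per line). The lines were apart by a margin much smaller than the spread within either. PTK7, a pseudokinase of planar cell polarity, read 433 and 438 against 341 and 396, lower without overlap in both of its probe sets (log2 fold changes -0.24 and -0.21, adjusted p = 0.715 and 0.749).

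To see whether the genes beside ROR1, WNT16 and WNT5B moved with them, the 5 nearest measured genes on each side in the order of the RefSeq gene table were read by their brightest probe sets. Around ROR1, on chromosome 1, none of the 10 passed the test, and their log2 fold changes ran from -0.45 (UBE2U) to 0.23. ROR1-AS1, the antisense gene beside ROR1, read 6.11 and 6.63 in COLO-320DM cells and 5.76 and 6.79 in 320-IWR cells, all low intensities. Around WNT5B, on chromosome 12, none of the 10 passed, and all were between 0.01 and 0.27. Around WNT16, on chromosome 7, 1 of the 10 passed. It was CPED1, the gene directly before WNT16 in that order, which read 1137 and 892 in COLO-320DM cells and 74.3 and 53.7 in 320-IWR cells. CPED1 fell while its neighbor WNT16 had a positive difference (log2 fold change -3.99, SE 0.22, limma adjusted p = 0.0128, n = 2 per line). A second CPED1 probe set read 590 and 536 against 44.1 and 49.5 (log2 fold change -3.59, adjusted p = 0.00807). FAM3C, on the other side of WNT16, had 0.83, and ING3, AASS and CADPS2 had 0.55, 0.68 and 1.25, each higher without overlap. TSPAN12 had -0.64, lower without overlap. None of these passed. By sign, 5 of the 10 were higher and 5 lower, and WNT16 itself had 0.78 by its brightest probe set. CPED1, FAM3C, ING3, AASS, CADPS2 and TSPAN12 are named after their values were seen. Fits with 1 array left out cannot decide whether the call of CPED1 holds, because they leave too few arrays for the test.

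**Figure D4:**
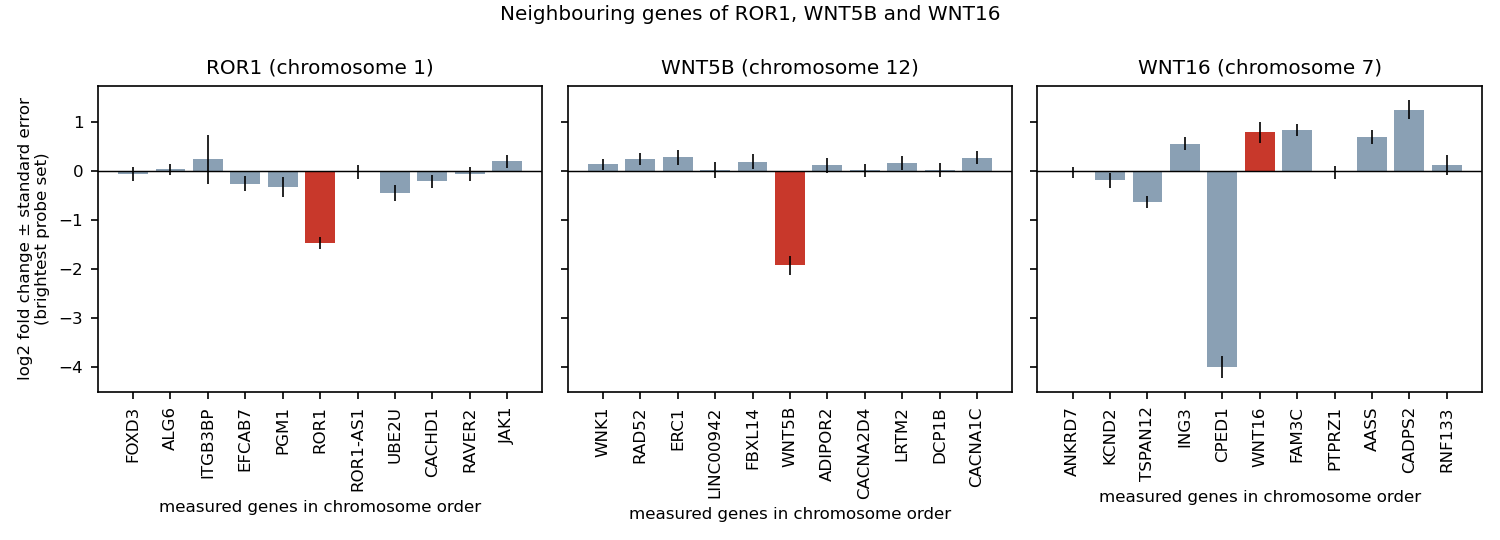
Log2 fold change, 320-IWR against COLO-320DM, of the brightest probe set (bars; vertical lines are ± 1 standard error from limma) for ROR1, WNT5B and WNT16 (red) and the 5 nearest measured genes on each side (grey-blue), in the order of the RefSeq gene table. The neighbors of ROR1 run from -0.45 to 0.23 and those of WNT5B from 0.01 to 0.27. Those of WNT16 run from -3.99 (CPED1) to 1.25 (CADPS2), with 5 higher and 5 lower.

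The other parts of the pathway were counted in gene lists by brightest probe set, and each count is read against all 19775 genes, of which 0.192% rose and 0.399% fell and 5.91% were higher and 6.36% lower at an unadjusted p under 0.05. Among 42 measured planar polarity and non-canonical components, 0 rose and 1 fell, with 1 higher and 11 lower at an unadjusted p under 0.05 and a median log2 fold change of -0.09. The gene that fell was VANGL2, a core planar polarity protein of the membrane, which read 128 and 118 in COLO-320DM cells and 28.4 and 31.4 in 320-IWR cells. The lines were widely separated (log2 fold change -2.04, SE 0.13, limma adjusted p = 0.0170, n = 2 per line). Whether the call of VANGL2 holds cannot be decided by leaving out 1 array, because too few arrays then remain for the test.

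Among 19 measured Wnt/β-catenin target genes, none rose or fell, with 2 higher and 11 lower at the unadjusted p (5.91% and 6.36% of all genes) and a median log2 fold change of -0.61. AXIN2, a feedback inhibitor and standard readout of the pathway, read 5018 and 3717 in COLO-320DM cells and 1918 and 1888 in 320-IWR cells (log2 fold change -1.18, limma adjusted p = 0.121, n = 2 per line). All 4 of its probe sets had negative log2 fold changes, from -1.35 to -1.05. NKD1, a feedback inhibitor that acts on Dishevelled, read 441 and 418 against 76.3 and 115 (-2.20, adjusted p = 0.0566). LEF1, a transcription factor that β-catenin binds, had -0.92 and APCDD1, a membrane inhibitor of Wnt, -1.25, both without overlap and neither past the test. Not all targets were lower. SP5, a transcription factor and direct target, named after its values were seen, read 55.7 and 48.2 against 122 and 137 (1.32, adjusted p = 0.0646).

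The R-spondin receptors and the turnover of Frizzled were covered by 5 genes, of which none passed the test, with 2 higher and 2 lower at the unadjusted p (5.91% and 6.36% of all genes). LGR5, an R-spondin receptor and stem cell marker, read 67.5 and 119 in COLO-320DM cells and 141 and 173 in 320-IWR cells (log2 fold change 0.80). Both 320-IWR arrays were the higher ones. RNF43 had -0.33 and ZNRF3, the other ligase that removes Frizzled, -0.61, both lower without overlap. LGR5, RNF43 and ZNRF3 are also in the list of target genes. Of 25 measured intracellular transduction genes none passed, with 3 higher and 0 lower at the unadjusted p (against the same 5.91% and 6.36%), and CTNNB1, which encodes β-catenin, read 2945 and 2623 against 2546 and 2308 (-0.20, adjusted p = 0.808).

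A list of 20 Wnt antagonists held secreted proteins and some membrane proteins, such as KREMEN1 and KREMEN2. None of the 20 passed the test, with 2 higher and 4 lower at the unadjusted p (5.91% and 6.36% of all genes). Their median log2 fold change was 0.05. NOTUM, a secreted enzyme that strips the lipid from Wnt ligands, read 518 and 1001 in COLO-320DM cells and 67.9 and 79.9 in 320-IWR cells. The lines were widely apart, but the parental arrays differed from each other (log2 fold change -3.29, limma adjusted p = 0.0566, n = 2 per line). NOTUM is also in the list of target genes. WIF1, which binds ligands outside the cell, read 1090 and 716 against 124 and 310 (-2.17, adjusted p = 0.231). Another list held 15 genes, mostly surface helpers of the ligands such as glypicans, but also MCC, which encodes an intracellular protein. None of the 15 passed, with 1 higher and 8 lower at the unadjusted p (against the same 5.91% and 6.36%) and a median of -0.55. Among these, ATP6AP2, an adaptor between the LRP6 complex and the proton pump, read 2775 and 2639 against 1291 and 1211 (-1.11, adjusted p = 0.0638). NOTUM, WIF1 and ATP6AP2 are named after their values were seen.

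**Figure D5:**
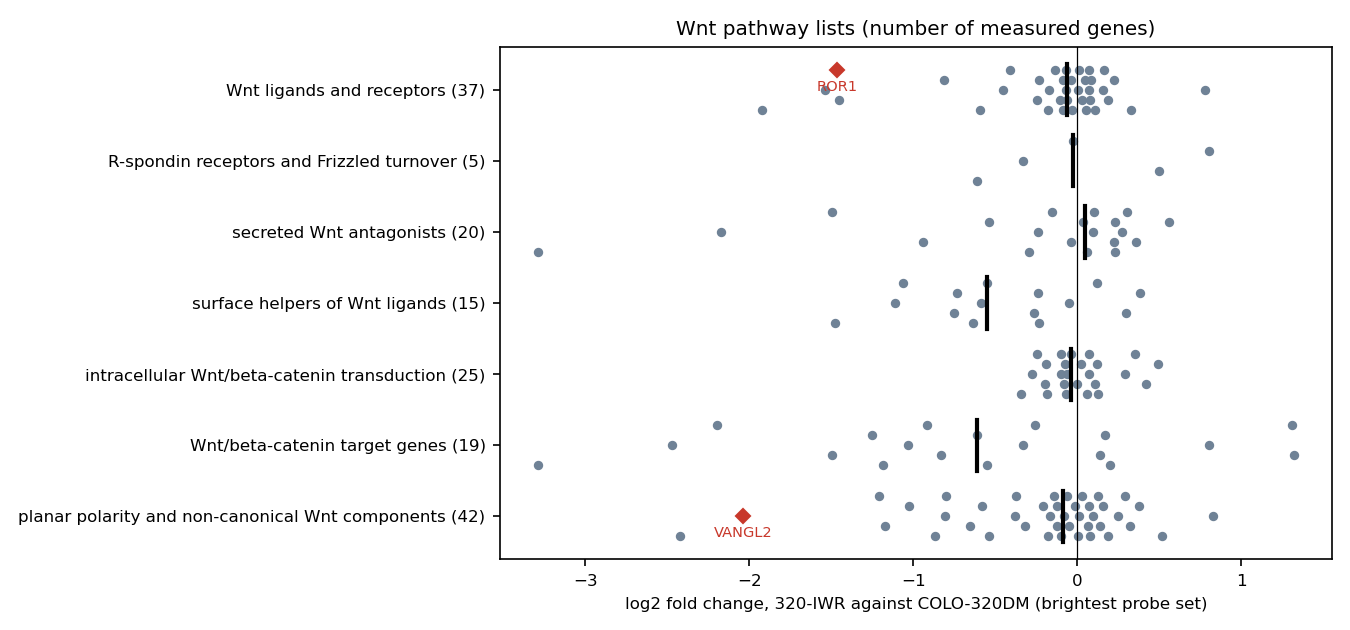
Log2 fold change, 320-IWR against COLO-320DM, of the brightest probe set of each measured gene (points) in the ligand and receptor group and in 6 other lists of the Wnt pathway, with the median of each list (vertical bars); the height of a point within its list has no meaning. Red diamonds are ROR1 and VANGL2, which passed the test. The medians run from -0.61 for target genes to 0.05 for the list labeled secreted antagonists, which also holds membrane proteins.

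The labels of the lines were set beside markers. CDX2, a transcription factor of intestinal epithelium, read 3403 and 3263 in COLO-320DM cells and 2723 and 2790 in 320-IWR cells, but EPCAM, CDH1, KRT19 and LGALS4 were under 64 on all 4 arrays, as were 5 of the 12 epithelial markers in all. Within that list KRT8 and KRT18 fell and KRT20 rose, and the summed intensity of the 12 was 5449 to 5636 in COLO-320DM cells and 3733 to 3832 in 320-IWR cells. Their part in the differences of ROR1, WNT5B and WNT16 was not tested. None of 6 leukocyte, 8 fibroblast, 8 endothelial and 9 neuroendocrine markers passed the test. Their summed intensities overlapped between the lines for the first 3 kinds, and were 280 to 281 in COLO-320DM cells and 264 to 273 in 320-IWR cells for the neuroendocrine markers, of which 8 were under 64 on all arrays. In bulk RNA, fewer cells with a transcript and less of it per cell cannot be told apart. Over all probe sets, array medians were between 41.1 and 41.9, and the log2 values correlated across probe sets at r = 0.990 and 0.991 within lines and 0.980 to 0.988 between them.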

How the data were processed

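Total RNA of 2 COLO-320DM and 2 320-IWR samples was labeled with biotin and hybridized to Affymetrix arrays. The deposited values are linear probe set intensities on a common scale; the submitters' processing notes name RMA, without a version, and the study's methods name GeneSpring GX for normalization. No genome build enters the values. Samples were grouped by the cell line in their labels. The 62 control probe sets among 54675 were removed, and log2 was taken with a floor of 1. Differences were fitted with R 4.3.3 and limma 3.58.1 (lmFit and eBayes, cell line as the only term, constant prior with 2.78 degrees of freedom, no filter on dim probe sets), and the script was tested on simulated data. In the annotation supplied, 41091 probe sets have a single gene symbol, 1801 have several and 11721 lack one. Genes are counted only from the first kind, and FZD8 alone is given values from the second. In all, 0 symbols needed an update. RMA smooths low intensities, which compresses differences of dim probe sets, and precision is limited by having 4 arrays.

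Full statistics are given for genes of the group with a probe set that passed the test. Array values are given for those with a 1.5-fold difference or more at an unadjusted p under 0.05. They are also given for LRP5, LRP6, WLS, ROR2, RYK and PTK7. Array values of WNT2B, WNT6, WNT7B, WNT10B, WNT11, RSPO1, FZD1, FZD3, FZD5, FZD6, FZD7 and FZD10 are outside this rule. They were given with their values known. From other lists the genes that passed and AXIN2, LEF1, NKD1, APCDD1, LGR5, RNF43, ZNRF3 and CTNNB1 are named. The genes and lists were chosen with earlier results of these data known. A planned description of protein sequences was replaced by promoter windows, read from a RefSeq table of GRCh38.p14. Alternatives were a replicate block, other normalizations, a filter on dim probe sets, another prior, an offset, other thresholds, fewer or averaged probe sets and leaving out each array.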

Additional observations from a re-analysis of the deposited data

How the results depend on the processing

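In the replicate block fit, with the replicate number as a block, 1 ligand or receptor probe set rose and 3 fell, 2 genes fell by brightest probe set, and 8 genes of the other Wnt lists fell; WNT5B (adjusted p = 0.0446) and a second ROR1 probe set (0.0480) joined the calls. The arrays share only a number: deviations of the arrays numbered 1 from their line means correlated between the lines at r = 0.66 across all probe sets, with 2 pairs, and over all probe sets the block moved the calls from 61 higher and 141 lower to 182 and 394. Ligand and receptor probe sets that rose numbered 1, and 0 with the dim filter, with an offset of 32, or with _x_at and _s_at probe sets removed; those that fell numbered 1, 2 with cyclic loess, equal array medians or the dim filter, and 0 with a trended robust prior, the offset or an adjusted p under 0.01. By gene, falls numbered 1, 2 under the same 3 alternatives and 0 under the same other 3, and rises numbered 0, and 1 when a gene's probe sets were averaged, WNT16 (log2 fold change 1.78, adjusted p = 0.0197). The dim filter and the removal of _x_at probe sets take the dim WNT16 probe set out of the test, and ROR1's adjusted p of 0.0368 is above 0.01; for the other settings the cause was not tested. In the other Wnt lists 0 genes rose and 1 fell; with cyclic loess or the dim filter 3 fell, with gene means 1 rose and 5 fell, and with the offset or an adjusted p under 0.01 0 fell. With 1 array left out, a line has a single array, so calls from those fits cannot show whether a difference holds. Without 320-IWR replicate 1 or 2, limma called 0 of all probe sets, with 3756 and 3502 at an unadjusted p under 0.05. Differences near 0 changed sign for LRP6 (-0.015 with gene means, and -0.017 to 0.16 with 1 array left out), LRP5 (-0.034 to 0.69) and WLS (-0.15 to 0.010). Of the single-gene values under these alternatives, 294 kept their direction and side of the threshold, 18 passed it newly, 19 no longer did and 4 changed sign.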

Other observations

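Of the 15 genes listed as surface helpers of Wnt ligands, 9 were lower and 2 higher in 320-IWR cells without overlap, against 17.5% and 21% of all genes. The other 4, MCC among them, overlapped, and none of the 15 passed limma's test. The genes below were named after their values were seen. GPC4, a glypican, read 2240 and 2118 in COLO-320DM cells and 1263 and 1326 in 320-IWR cells (log2 fold change -0.75). GPC3, a glypican known from embryonic growth, read 107 and 102 against 57.0 and 44.1 (-1.06), and GPC6 had -0.59. The 2 higher ones, GPC5 and SULF2, a sulfatase of heparan chains, were at low intensities. GPC5 read 6.45 and 6.86 against 8.38 and 8.94 (0.38), and SULF2 read 14.0 and 12.1 against 14.3 and 17.8 (0.29). SULF1, the other sulfatase of the list, was lower and read 259 and 92.2 against 59.0 and 51.9 (-1.48). GPC1 and GPC2 overlapped. ADGRA2, which with RECK makes cells respond to WNT7A and WNT7B, read 91.4 and 92.1 against 55.4 and 55.1 (-0.73). KREMEN1 and KREMEN2, paralogous receptors of the Dickkopf antagonists, had differences of opposite sign. KREMEN1 read 880 and 921 against 604 and 636 (-0.54), and KREMEN2 read 87.4 and 88.6 against 136 and 124 (0.56). Of the planar polarity list, PRICKLE2, a cytoplasmic partner of VANGL2, read 57.5 and 53.6 against 26.4 and 21.9 (-1.21) and likewise did not pass.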
